A study of Homo sapiens with 2 samples.

Results

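NUCKS1 carried 10 of the 2054 binding sites of the Y-box binding protein 1 (YBX1) listed from PAR-CLIP in HEK293 cells (0.487% of the list). The sites were chosen as those whose midpoint lies within NUCKS1 on its own strand (hg38, chromosome 1, 205712822 to 205750182, minus strand), and the gene was chosen by its number of sites, which no other gene reached. That number and its rank are therefore a description, and nothing was tested on them. The density, spacing and crowding of the sites given below follow in part from the same choice. The exact Poisson 95% interval of 10 sites is 4.795 to 18.4 and covers counting error only.

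HEK293 is a human embryonic kidney line. The study has 1 group, YBX1 PAR-CLIP in 2 replicates, with no control library, and by the methods a YBX1 with FLAG and HA tags was overexpressed from a stable insertion in T-REx HEK293 Flp-In cells and pulled down through the FLAG tag, whereas the labels name an antibody to YBX1 itself. Cells were fed 4-thiouridine, a uridine analog that crosslinks to bound protein under long-wave UV light, and the RNA was trimmed with RNase T1, which cuts single-stranded RNA after G. The authors pooled both replicates into 1 list, which gives position, strand, gene name and annotation of a site but no read count or score. The depth behind each site is therefore unknown, no spread between replicates can be given, no site can be ranked by strength, and the identity of the cells cannot be checked from markers.

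NUCKS1 (nuclear casein kinase and cyclin-dependent kinase substrate) encodes a small chromatin-associated DNA-binding protein found in vertebrates, which is heavily phosphorylated by casein kinase 2 and cyclin-dependent kinases and takes part in DNA repair by homologous recombination. YBX1 is a cold-shock domain protein that coats mRNAs and is known for effects on their stability and translation. Proteins of this kind that bind a 3′UTR, the stretch between the stop codon and the poly(A) tail, can act on the mRNA without touching the coding sequence.

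All 10 sites lay in the 3′UTR, and they are printed here because several of the results below turn on their letters. Each is written 5′ to 3′ on the RNA strand (minus strand of hg38, with T for U), and nt counts from 1 at the first base after the stop codon. Capitals mark bases covered by any of 11 tetramers of A, C and U that earlier work on this list had found more often in YBX1 sites than beside them, each of which is spelled out with its counts further on. The site at nt 2027 is 31 nt wide, and its last 30 nt are shown.
NUCKS1 nt 555, chr1:205717709-205717725: ACTTtaAACTTcCACCg
NUCKS1 nt 685, chr1:205717571-205717595: ctttcttttttatttCATCACTTgt
NUCKS1 nt 1490, chr1:205716773-205716790: cttcACATCtaataccag
NUCKS1 nt 1612, chr1:205716647-205716668: gcttcctcaatatcctACTTtg
NUCKS1 nt 1879, chr1:205716384-205716401: tatccattttTAACAAag
NUCKS1 nt 2027, chr1:205716223-205716253: tttggggggagggctcttttaaAACTTcag
NUCKS1 nt 2188, chr1:205716069-205716092: tcccttttaaaattaattcattag
NUCKS1 nt 2712, chr1:205715549-205715568: catACTTtCATCttattcag
NUCKS1 nt 4266, chr1:205713998-205714014: CATCtaattcctACAAg
NUCKS1 nt 4458, chr1:205713805-205713822: cttcactgtatTAACTag

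The 3′UTR of NUCKS1 is a single stretch of 5458 nt (205712822 to 205718279) in the last of 7 exons, and it makes up 85.3% of the 6399 nt of the mRNA. The coding sequence of 732 nt, the 5′UTR of 209 nt and the introns held 0 sites each. The authors' annotation and GENCODE release 44 placed the same 10 sites in the 3′UTR, so no site changed class with the annotation. The 3′UTR belongs to 1 annotated coding transcript, and the other NUCKS1 transcript in GENCODE holds 0 of the sites. No other annotated gene covered a site, and 0 sites lay on the opposite strand of the gene. Each of the 10 sequences occurred once in the genome on either strand, against 167 of 2049 sequences of the whole list (8.15%) that occurred more than once.

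A first pair of sites began at nt 555 and nt 685. After a stretch of 780 nt without a site, 5 sites followed within 722 nt, at nt 1490, 1612, 1879, 2027 and 2188, and a single site began at nt 2712. The next 1534 nt held no site, and the last pair began at nt 4266 and nt 4458, which left 983 nt to the end of the transcript. In 3 equal parts of the 3′UTR, there were 4 sites in the first, 4 in the middle and 2 in the last. The midpoints of neighbouring sites were between 124 and 1552 nt apart, with a median of 193 nt over 9 gaps. The closest neighbours were thus several site widths apart, and no 2 sites fell together when sites within 50 nt were merged.

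**Figure D1:**
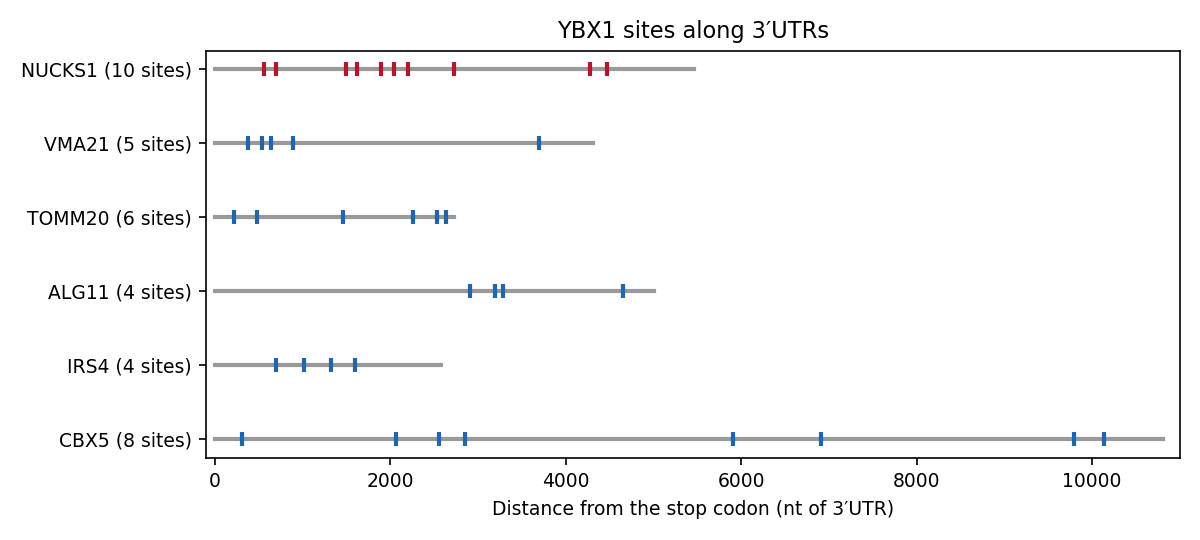
Midpoints of YBX1 sites (ticks) along the 3′UTR (grey line, distance from the stop codon in nt) of NUCKS1, of the 4 genes nearest to it in median spacing and of CBX5. The 5 NUCKS1 sites between nt 1490 and nt 2211 are the most within 1000 nt of 3′UTR, and the CBX5 sites are spread over 10813 nt.

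The density of NUCKS1 was 1.83 sites per kb of 3′UTR (exact Poisson 95% interval 0.879 to 3.37), which ranked 55th among 732 protein-coding genes that had any site there, with 1 transcript taken per gene, since a single site in a short 3′UTR gives a high value. Among the 20 genes with at least 4 such sites it ranked 4th, behind B2M, TMBIM6 and TOMM20, and the median of the 20 was 1.18 sites per kb. Within 1000 nt of 3′UTR, counted by midpoints, NUCKS1 reached 5 sites, and no other 3′UTR did so. This maximum and the density follow in part from choosing the gene by its number of sites, and neither was tested. Sites in coding sequence were not counted in this way. At least 4 3′UTR sites within 1000 nt were reached by 6 genes, NUCKS1 included, and at least 3 by 18.

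The genes next to NUCKS1 in number of sites differed in where these lay. MT-ND4 and MT-ND5, mitochondrial mRNAs of respiratory complex I, had 9 sites each, all in coding sequence. CBX5, the gene of heterochromatin protein 1 alpha, had 8, all in the 3′UTR. TASOR2 had 8, of which 3 lay in the 3′UTR of any annotated transcript and 5 in coding sequence. With 1 transcript taken per gene, fewer than 3 TASOR2 sites lay in the 3′UTR. With NUCKS1, CBX5 was the only gene of these whose sites were confined to the 3′UTR, and its median spacing was 1005 nt, against 193 nt in NUCKS1. Among genes with fewer sites, TOMM20 likewise had all 6 of its sites in the 3′UTR.

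In median spacing, the genes most like NUCKS1 among the 20 with at least 4 sites in the 3′UTR were VMA21 (212 nt, 5 sites), TOMM20 (270 nt, 6 sites), ALG11 (282 nt, 4 sites) and IRS4 (309 nt, 4 sites in the 3′UTR). VMA21 encodes an assembly factor of the vacuolar proton pump, TOMM20 a receptor of the mitochondrial outer membrane, ALG11 an enzyme of N-glycan assembly and IRS4 an insulin receptor substrate. Likeness here is the difference of median spacings on the log2 scale, which was 0.14 for VMA21 and 0.68 for IRS4. Of the TOMM20 sites 4, and of the ALG11 sites 2, are not unique in the genome by sequence, so that reads there could stem from other copies. Only B2M had a shorter median spacing than NUCKS1 (53 nt, 4 sites), and the median over the 20 genes was 540.5 nt.

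The bases of the NUCKS1 sites were poor in C and A for this list. C and A made up 50% of their 210 bases, against 60.8% of the bases of 1125 other sites in 3′UTRs. These other sites count as 3′UTR if any annotated transcript places them there. With 1 transcript taken per protein-coding gene, 954 sites of the list, NUCKS1 included, lay in 3′UTRs. Per site, the share of C and A averaged 51.9 ± 11.7% in NUCKS1 and 60.7 ± 9.84% in the other sites (SD over sites, n = 10 and 1125). Of the NUCKS1 sites 6 lay below 54.5%, the lower quartile of the other sites. U made up 40% of bases in the NUCKS1 sites and 33.6% in the other sites, and G 10% and 5.58%. Sites of 1 mRNA share their surroundings and are not replicates, so these differences were not tested.

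The sites differed among themselves. C and A were highest at nt 1490 (66.7%), nt 555 and nt 4266 (64.7% each), where A and C were nearly balanced. At nt 1879 the share was 55.6%, and at nt 1612, 2188, 2712 and 4458 it was 50%. The lowest share was found at nt 685 (32.0%), where 16 of 25 bases were U, and at nt 2027 (35.5%), where 10 of 31 bases were G. The groups overlapped, since the 3 sites highest in C and A lay above the median of the other sites in 3′UTRs, 60.9%.

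**Figure D2:**
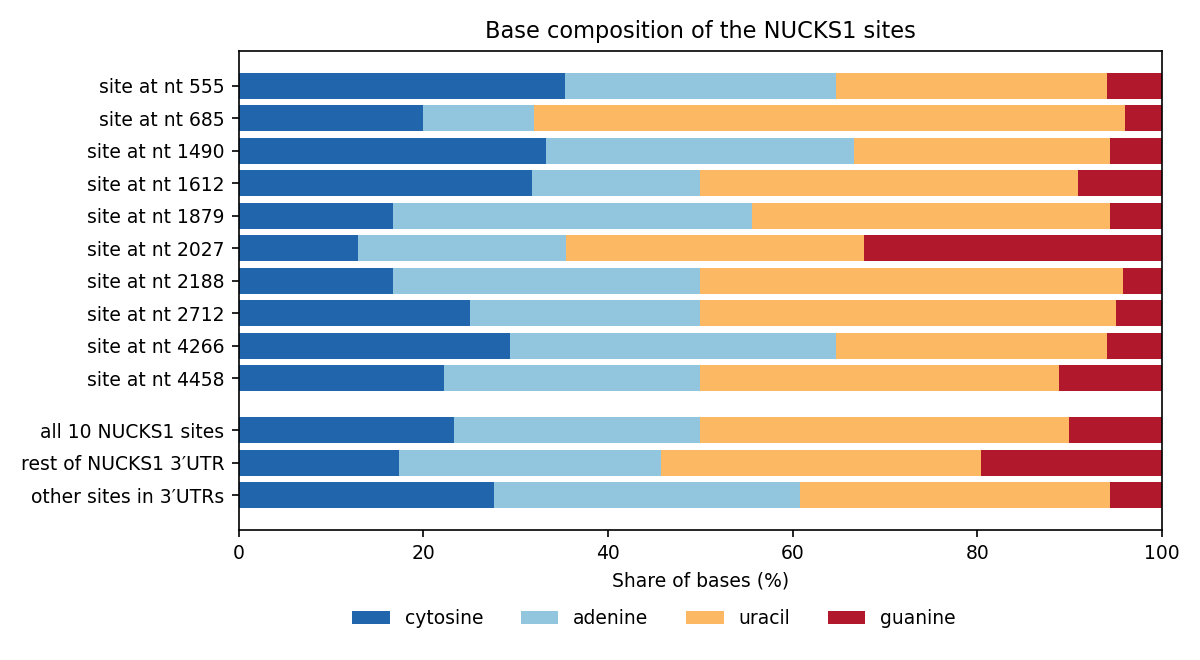
Share of each base (in %, stacked to 100) in each NUCKS1 site, in all 10 together, in the rest of the NUCKS1 3′UTR and in 1125 other sites in 3′UTRs. The site at nt 685 is mostly uracil and that at nt 2027 holds the most guanine, and cytosine and adenine together reach 50% over the 10 sites.

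The site at nt 2027 held the most G. It has runs of G near its 5′ end and 9 G in all before its last base. Of the 1125 other sites in 3′UTRs, 3 had at least 9 (0.267%), and the highest number was 11. Of the other NUCKS1 sites, 6 had 0 such G and 3 had 1, and 88.9% of the other sites in 3′UTRs had 0. The ends were those that RNase T1 leaves in most sites. A G preceded 8 of the 10 NUCKS1 sites and 86.5% of the other sites, and a G was the last base of 9 NUCKS1 sites and of 95.2% of the others. The site at nt 685 was the 1 that did not end in G. The sites at nt 1490 and nt 1612 did not begin after a G.

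Against the 3′UTR around them, the NUCKS1 sites did not differ in C and A beyond counting error. The share was 50% in the sites and 45.8% in the other 5248 nt of the 3′UTR, a difference of 4.21 percentage points with a 95% interval from -2.63 to 11.05 for counting error, which treats bases as independent. C was higher in the sites (23.3% against 17.3%), U was higher (40% against 34.6%), A was slightly lower (26.7% against 28.4%), and G was lower (10% against 19.6%). With G left out of the count, since RNase T1 cuts after it, the difference in C and A turned to -1.37 points (55.6% of A, C and U in the sites and 56.9% in the rest), and with 10 nt added on each side it was -0.37 points. Without the G-rich site at nt 2027 it was 6.73 points.

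A closer reference within the same 3′UTR is given by stretches that RNase T1 could leave whole. The 3′UTR held 39 stretches of 17 to 31 nt, the width range of the sites, that follow a G, run up to the next G and include it. Of these, 5 were sites exactly as listed (nt 555, 1879, 2188, 2712 and 4266), 4 overlapped other sites and 30 were free of sites. C and A made up 56.3% of bases in the 5 stretches that were sites and 52.1% in the 30 free stretches, and U 38.5% and 43.3%. The 10 sites together, at 50%, differed from the free stretches by -2.08 points in C and A. Of the 39 stretches, 16 lay in the first of the 3 equal parts of the 3′UTR, 12 in the middle and 11 in the last. The 1534 nt without a site between nt 2712 and nt 4266 held 5 of them, and the 983 nt behind the last site held 9. Whether reads fell there below the limit of the caller cannot be seen in a list of sites.

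The same shares were computed for other genes with several sites. Among the 20 genes with at least 4 sites in the 3′UTR, the sites of NUCKS1 had the lowest share of C and A, 50%, against 52.8% to 64.7% in the other 19 genes with a median of 60.8%. EIF1AX, which encodes a translation initiation factor, came next with 52.8%, and CBX5 had 62.6%. The remaining 3′UTR of NUCKS1, at 45.8%, was ordinary in this respect, with a range of 42.3% to 51.4% and a median of 46.5% in the other genes. The difference between the sites and the rest was 4.21 points in NUCKS1, and the other genes had 1.90 to 18.7 points with a median of 14.1. With all bases counted, only ALG11 had less (1.90 points). Without the site at nt 2027 the NUCKS1 sites had 52.5% C and A, which is still below EIF1AX. The order did change when G was left out of the count in every gene, a setting chosen after seeing the data. C and A then made up 55.6% of A, C and U in the NUCKS1 sites and 55.3% in those of EIF1AX, which was the lowest, and the median over the 19 genes other than NUCKS1 was 64.4%. The difference between the sites and the rest was then -1.37 points in NUCKS1, -1.45 in EIF1AX and -10.3 in ALG11. Each gene contributes 4 to 10 sites, and the order of neighbouring genes was not tested.

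**Figure D3:**
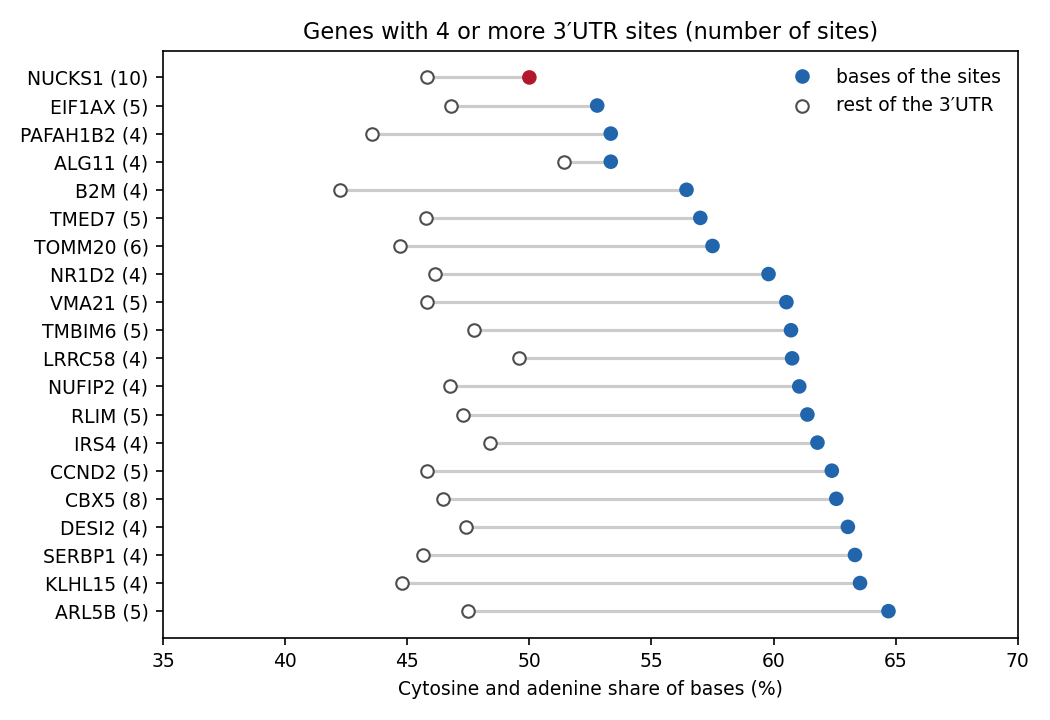
Share of cytosine and adenine (in %) in the bases of the sites (filled points, NUCKS1 in red) and in the rest of the 3′UTR (open points) of the 20 genes with at least 4 sites in the 3′UTR, with the number of sites in parentheses. With all bases counted, NUCKS1 has the lowest share in its sites (50%), and the gap to its 3′UTR is 4.21 points.

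Of the 11 tetramers marked by capitals above, at least 1 was present in 9 of the 10 NUCKS1 sites and in 92.1% of the other sites in 3′UTRs. The share was 47.9% in all windows of the same widths in the NUCKS1 3′UTR, and 18 of the 30 free RNase T1 stretches (60%) held at least 1. The tetramers were picked from this list for being more frequent in sites, so an excess over the windows was partly built in. The site at nt 2188 held none. A NUCKS1 site held a median of 2 different ones and at most 3, and the other sites a median of 3 and at most 8. ACTT was present in 5 of the NUCKS1 sites (50%), against 29.2% of the other sites and 12.7% of the windows, and CATC in 4 (40%), against 25.7% and 6.95%. One or the other was present in 7 NUCKS1 sites, in 49.5% of the other sites, in 18.6% of the windows and in 12 of the 30 free stretches that RNase T1 could leave (40%). ACTT and CATC had the highest counts of the 11 tetramers in the NUCKS1 sites, so a high joint share there was partly built in. AACT was found in 3 NUCKS1 sites and 30.6% of the other sites. ACAA was found in 2 and 22.8%, and TAAC in 2 and 27.9%. AACA was present in 1 NUCKS1 site and 29.96% of the others, ACAT in 1 and 28.8%, and CACC, at nt 555, in 1 and 11.3%.

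The remaining 3 tetramers were in 0 of the 10 NUCKS1 sites, which allows a share of up to about 30%. This limit is an approximation, 3 divided by the number of sites. CAAC was present in 24.6% of the other sites, ACTC in 21.5% of them and TTAC in 24.4%, so with 10 sites a lower share than in the rest of the list was not detectable. CAAC occurs 9 times in the NUCKS1 3′UTR, and with 10 nt added on each side still 0 sites held it. Outside the 11 tetramers, and picked after their values were seen, TTCA and CTTT were present in 6 NUCKS1 sites each, and CTTC, TTAA and TTTA in 5 each. TTCA was present in 24.1% of the other sites and 12.9% of the windows, CTTT in 26.5% and 24.9%, and CTTC in 22.5% and 8.96%. TTAA was present in 29.3% of the other sites and 19.7% of the windows, and TTTA in 26.9% and 22.7%. TTTT was found in 4 NUCKS1 sites, 20% of the other sites and 26.1% of the windows. Several of these tetramers overlap one another in the same letters, so their counts are not independent. All searches were on the RNA strand only, and a match is a description of the letters and not a mapped contact.

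Some sites shared longer stretches. The sites at nt 1490 and nt 4266 both held CATCTAAT, which occurs 3 times in the 3′UTR, with the remaining copy at nt 496 outside any site, and in 5 of the other sites of the list (0.245%). The neighbouring sites at nt 2027 and nt 2188 both held CTTTTAAAA, which also occurs 3 times, with the remaining copy at nt 477 outside any site. It was present in 2 of the other sites of the list. AAACTTC was shared by the sites at nt 555 and nt 2027, occurs 5 times in the 3′UTR and was present in 23 of the other sites of the list (1.13%). TTTCATC was shared by those at nt 685 and nt 2712, occurs 2 times, both in sites, and was present in 21 of the other sites (1.03%). All 4 stretches were picked for being shared by 2 sites, so for TTTCATC, with 2 copies, lying in sites throughout follows from that choice.

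Poly(A) tails are added shortly behind a hexamer, of which AATAAA is the most frequent form and ATTAAA a common variant. In the NUCKS1 3′UTR AATAAA began at nt 965, 1547, 3310, 5198 and 5433, and the last of these ends 20 nt before the annotated end of the transcript. Of the 10 sites, 2 lay before the AATAAA at nt 965, 3 before that at nt 1547, 8 before that at nt 3310 and all 10 before that at nt 5198. ATTAAA began at nt 29, 4136 and 4909. The 2 sites at nt 4266 and nt 4458 lie only in transcripts that run past nt 3310. Which ends HEK293 cells use was not measured here, and a hexamer is not by itself a used end.

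RNA folding of the mRNA was predicted with RNAplfold, which gives each base a probability of being unpaired within a window of 150 nt. The mean was 0.528 over the bases of the sites and 0.485 over the rest of the 3′UTR. By site the means ran between 0.352 (nt 1490) and 0.744 (nt 2712), with an SD over sites of 0.113, and 7 of the 10 lay above the mean of the rest. The difference was not tested. With a window of 240 nt both means were lower, 0.494 in the sites and 0.454 in the rest. RNase T1 cuts single-stranded RNA, so the ends of fragments and the predicted pairing are not independent measures.

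**Figure D4:**
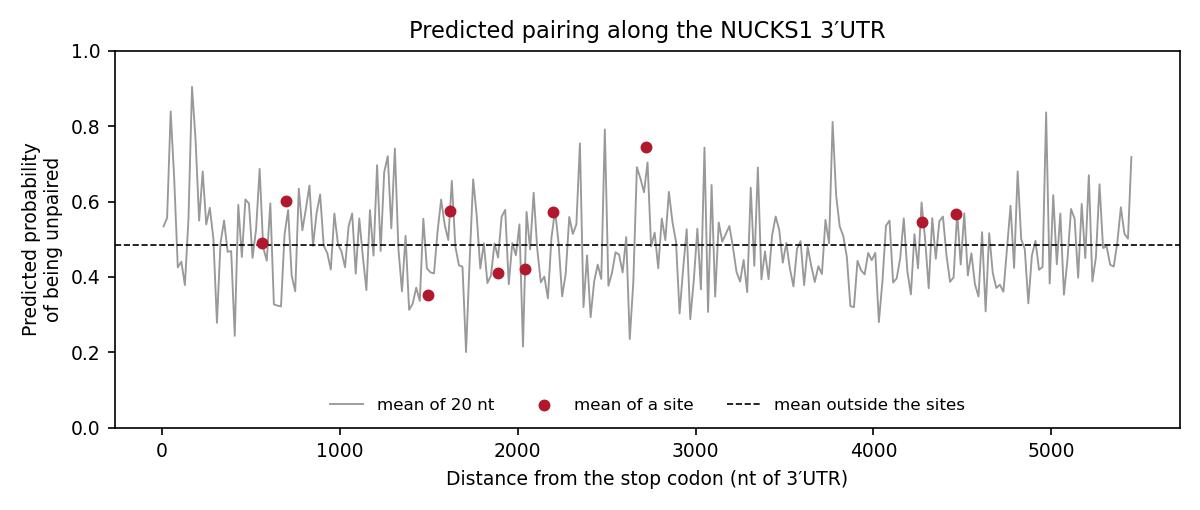
Predicted probability of being unpaired (0 to 1) along the NUCKS1 3′UTR, as means of 20 nt (grey line), with the mean of each site (red points) and the mean outside the sites (dashed line, 0.485). The points lie on both sides of the dashed line, between 0.352 and 0.744.

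The widths of the NUCKS1 sites ran between 17 and 31 nt with a median of 19 nt, against a median of 22 nt in the whole list. Only 3 of the NUCKS1 sites (nt 685, 2027 and 2188) were wider than that median, against 928 of the 2054 sites of the list (45.2%). The sites covered 210 nt in all, or 3.85% of the 3′UTR. The share of NUCKS1 sites wider than that median was thus lower than in the list. It rests on 10 sites and was not tested.

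Genes of the repair pathway, chromatin proteins and kinases linked to NUCKS1 were looked up in the same list of sites. Over all genes, 6.34% of 20046 protein-coding genes had at least 1 site in an exon or intron on their strand. Of 26 genes of homologous recombination, 2 had a site (7.69%, Wilson 95% interval 2.14 to 24.1): BRCA2, a tumour suppressor of this pathway, and RBBP8, which starts the resection of DNA ends, each with 1 site in coding sequence. RAD51AP1, the paralog of NUCKS1, had 0 sites in a 3′UTR of 1054 nt. Of 10 genes of high mobility group proteins, abundant chromatin proteins to which NUCKS1 has been likened, HMGA1 had 1 site in its 3′UTR and the other 9 had none (10%, 1.79 to 40.4). Both shares are close to that of all genes.

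Among 8 genes of kinases that phosphorylate NUCKS1 or act in the DNA damage response, 5 had a site (62.5%, 30.6 to 86.3). The share over all protein-coding genes was 6.34%. This short list was chosen with earlier results of these data known, so its share is no measure of enrichment and was not tested. CSNK2A1, a catalytic subunit of casein kinase 2, had 1 site in its 3′UTR, and CDK2, a kinase of the entry into S phase, had 2. Both CDK2 sites lay in the 3′UTR of some GENCODE transcript, but not both in that of the 1 transcript taken per gene. The authors' annotation places them in a 3′UTR and an exon. CDK1, the kinase of mitosis, had 1 in coding sequence. CSNK2A2, the other catalytic subunit, had 1 site, which GENCODE places in a noncoding exon and HOMER in an intron, and PRKDC, the DNA-dependent protein kinase, had 1 in an intron. CSNK2B, ATM and ATR had 0, and ATM and ATR were also in the list for homologous recombination. With sites in exons of 1 transcript per gene alone, 3 of the 8 genes had a site. The 6.34% also counts sites in introns, so it is not a reference for this narrower number. Expression was not measured here, so the share of all genes includes genes these cells may not express.

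Neighbouring genes on chromosome 1 were looked up in the same way. Of 9 protein-coding genes within 250 kb on either side, only ELK4, a transcription factor of the ETS family, had a site (11.1%, Wilson 95% interval 1.99 to 43.5, against 6.34% of all protein-coding genes), which lay in its 3′UTR (205609565 to 205609587). RAB29, SLC41A1, SLC45A3, PM20D1, MFSD4A, CDK18, RAB7B and SLC26A9 had 0 sites.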

How the data were processed

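The file used holds the positions of YBX1 PAR-CLIP sites in bases, as deposited by the authors, with strand, gene name and annotation. The authors cut adapters with cutadapt 1.4.1, mapped the reads with PARA-suite to GRCh38 plus transcripts, called clusters with BMix at default parameters on both replicates together and annotated them with HOMER. No depth per site or replicate is given.

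Starts were read from base 1, and the last base was taken as 1 before the listed end. In most sites the G left by RNase T1 then lies at that base on the plus strand and at the listed start on the minus strand. The shares of sites that follow or end in G depend on these ends. Sites were placed by midpoint in GENCODE release 44 on their own strand, with 3′UTR before coding exon, 5′UTR, noncoding exon and intron, then protein-coding genes and MANE Select transcripts first. Sequences came from hg38. For 3′UTR values, 1 transcript per gene was used (MANE Select, canonical or longest coding sequence). The 5 sites of 100 nt or more were left out of sequence comparisons. Python 3.11.15, pandas 2.3.3, numpy 2.4.6, SciPy 1.17.1, pysam 0.24.0 and RNAplfold of ViennaRNA 2.7.2 (span 100) were used, and placement and copy counts were checked on simulated sites.

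No test was made, since the list is 1 pooled sample. Intervals are exact Poisson for numbers of sites, Wilson for shares and built from Wilson limits for the difference of shares, all for counting error only. Members, gene lists and tetramers were chosen with earlier results of these data known. Named were every NUCKS1 site, the genes with 9 or 8 sites, the 4 nearest in median spacing, RAD51AP1, and list genes and neighbours with a site. Other genes were named after their values were seen. Alternatives changed the assignment, width, copies, merging, ends and extension of sites, the bases counted, the hexamers, the folding window and the regions of list genes.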

Additional observations from a re-analysis of the deposited data

How the results depend on the processing

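The number of NUCKS1 sites (10), their density and their median spacing were the same with any overlap in place of the midpoint, with sites within 50 nt merged and with only sequences that occur once in the genome. The number was also 10 with strand ignored and with the gene names of the authors. With only sites wider than the median of the list, 3 sites were left, at 0.550 per kb and with a median spacing of 751.5 nt. The number of sites before the first hexamer fell to 0 with ATTAAA counted, against 2 with AATAAA alone, and the number of kinase genes with a site to 3 with exons of 1 transcript, against 5. The C and A share of the sites was between 45.6% (10 nt added on each side) and 55.6% (A, C and U only) under the alternatives, and the difference from the rest of the 3′UTR was 2.32 points with the listed end as the last base. Its sign turned with 10 nt added, with A, C and U only and against the free RNase T1 stretches (-2.08 points), all within the interval of the main value, so no excess of C and A over the NUCKS1 3′UTR was established. With A, C and U only in every gene, EIF1AX and not NUCKS1 had the lowest C and A share in its sites (55.6% in NUCKS1 and 55.3% in EIF1AX). This comparison, the RNase T1 stretches and leaving out the G-rich site were chosen after seeing the data. No paired analysis was possible because both replicates were pooled into 1 list. Without read counts, how firmly each site was called cannot be told.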
